A study of Nannospalax ehrenbergi and Mus musculus with 25 samples.

Results

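Expression of 45 genes of the Fanconi anemia and DNA crosslink repair machinery was examined in muscle and tumor tissue of the blind mole rat *Spalax* and of the mouse. The genes were chosen by name, for their place in the pathway, and all 45 are listed in both gene tables, which hold 27988 genes for *Spalax* and 47593 for mouse, with 14769 shared by symbol. The carcinogen 3-methylcholanthrene (3MCA), which damages DNA, had been injected once under the skin of the neck. The injected side (IS) of tumor-bearing animals held the tumor, and the uninjected side (UIS) was muscle from the other side of the same animal. The *Spalax* libraries comprised 4 untreated controls (uninjected side, all females), 4 tolerant animals that grew no tumor by 18 or 30 months (injected side, 3 males and 1 female), and the IS and UIS of 2 granulomas (at 14 and 16 months after the injection, females) and of 2 fibrosarcomas (at 18 months in a female and 30 months in a male). The mouse libraries comprised 3 untreated controls and the IS and UIS of 3 fibrosarcomas taken at 11, 12 and 14 weeks, all from males. *Spalax* were wild-caught animals whose age is only estimated, in years, and the mice were C57BL/6 animals a few months old. The labels name no other agent and no allele for any group. All control and tolerant libraries carry dual index sequences and all libraries of tumor-bearing animals a single index, so this difference and tumor bearing cannot be told apart between those groups, while IS and UIS share it.

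The Fanconi anemia pathway repairs crosslinks that join both strands of DNA and block replication forks. A core complex of proteins, with Fancl as its ubiquitin ligase and Ube2t as the conjugating enzyme, attaches ubiquitin to the Fancd2 and Fanci pair. Nucleases then unhook the crosslink, translesion polymerases copy past the remaining lesion, and homologous recombination, with Brca1, Brca2 and Palb2, restores the broken strand. Many of these genes are expressed mostly in dividing cells, and resting muscle holds few of those.

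Library depth was 17025447 to 23386729 reads in *Spalax* and 22143060 to 31179183 in mouse. Values are normalised counts, that is reads divided by a size factor per library. The labelled tissue was checked against 15 skeletal muscle markers, of which 12 are in the *Spalax* table. Their summed level was 1.43e+06 to 3.80e+06 in *Spalax* UIS and 283.4 to 5188 in *Spalax* IS. In mouse it was 2.54e+06 to 6.11e+06 in UIS and 262.6 to 96622 in IS, so the tumors held little muscle RNA. In these bulk samples fewer cells of a type and less RNA per cell cannot be told apart. The granuloma UIS library of animal 976 stood apart from the other 3 *Spalax* UIS libraries. Its muscle markers summed to 1.43e+06 against 3.20e+06 to 3.80e+06, its proliferation genes to 10442 against 3711 to 4715, and its Fancc, Rev3l and Brca1 values were each the highest of the 4. Among mouse UIS, the proliferation genes of animal 1019 summed to 5511 against 2125 and 2499 in the others. Its Brca1 was at 62.9 against 6.19 and 7.20. Its Eme1, Fanci and Fancd2 values were also the highest of the 3, and its Fancb value the lowest.

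In the fibrosarcomas of both species more crosslink repair genes rose than fell, while in granuloma few changed and the balance of rises and falls depended on the fit. A gene is said to have changed when limma on log2(value + 1), adjusted by Benjamini-Hochberg over all genes tested, gave a p of at most 0.05. In the mouse fibrosarcomas 22 of the 45 rose and 0 fell, beside 22.8% of all 15220 genes tested that rose and 22.3% that fell. In the *Spalax* fibrosarcomas 12 rose and 3 fell, beside 17.4% and 19% of 14696 genes. In the granulomas 3 rose and 1 fell, beside 11.7% and 12.6% of 14735 genes. The median log2 fold change of the 45 was 1.04 in mouse, 0.45 in *Spalax* fibrosarcoma and 0.05 in granuloma, and that of all genes tested was 0.11, 0.03 and -0.01. Scaling by total reads in place of size factors shifted the median of all genes to 1.16, 0.83 and 0.72. Under it 34 genes rose and 0 fell in mouse, 22 rose and 1 fell in *Spalax* fibrosarcoma, and 8 rose and 0 fell in granuloma, so directions here are relative to the typical gene. Unadjusted p-values under 0.05 were found for 28, 17 and 12 of the 45, in the order mouse, *Spalax* fibrosarcoma, granuloma. Beside them stood 8249 of 15220, 7196 of 14696 and 6034 of 14735 genes. In that order DESeq2 called 27, 16 and 10 of the 45, beside 8174, 6358 and 5383 of all genes. By edgeR the counts were 20, 14 and 5, beside 6572, 5096 and 2978. In mouse 24 rose and 3 fell by DESeq2, beside 4048 and 4126 of all genes. In a model over all mouse libraries 25 rose and 1 fell, beside 4210 and 3959. In granuloma 5 rose and 5 fell by DESeq2, beside 2689 and 2694 of all genes. By limma with the animal as a block 2 rose and 2 fell, beside 1474 and 1634. In a model over all *Spalax* libraries 9 rose and 8 fell, beside 2961 and 3353. Leaving out 1 library of a *Spalax* tumor leaves 1 library in a group, so such a fit cannot show whether the calls hold. The median log2 fold change of the 45 was then -0.10 to 0.23 in granuloma and 0.37 to 0.53 in *Spalax* fibrosarcoma. In mouse 14 were called without IS 1019, 12 without UIS 1023 and 10 without IS 1023, beside 4837, 4642 and 4258 of all genes. Without UIS 1019 20 were called, beside 6165. Fancd2, Brip1 and Eme1 rose in all 3 tumors, 7 genes changed in 2 of them, 18 in 1 and 17 in none. The IS and UIS libraries did not overlap in 32 of the 45 in mouse, 35 in *Spalax* fibrosarcoma and 29 in granuloma. Of all genes tested 60.2%, 74.3% and 69.8% did not overlap, so such separation was common.

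**Figure D1:**
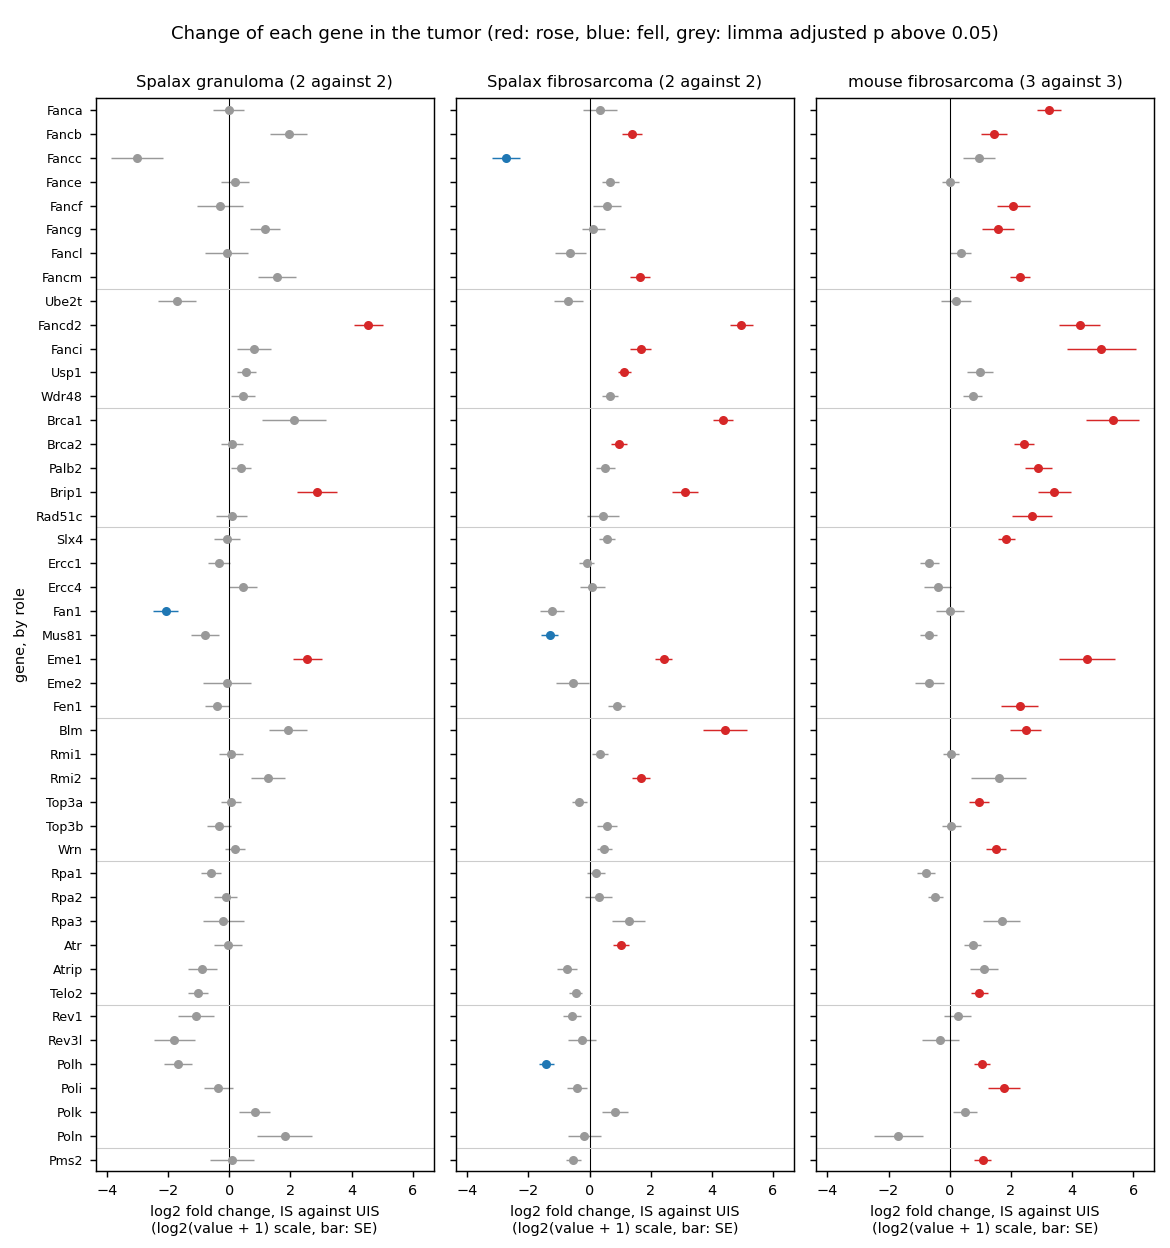
Log2 fold change of each of the 45 genes in IS against UIS on the log2(value + 1) scale, with bars for the SE, in *Spalax* granuloma and fibrosarcoma (2 libraries against 2) and in mouse fibrosarcoma (3 against 3). Red points rose, blue points fell and grey points did not pass; Fancd2, Brip1 and Eme1 are red in all 3 panels, and the mouse panel has 22 red points and no blue ones.

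Marker lists of other cells moved with these changes. Of 25 proliferation genes, 25 rose in the mouse tumors, 23 in *Spalax* fibrosarcoma and 17 in granuloma, and their summed level ran from 31428 to 37880 in mouse IS against 2125 to 5511 in UIS. In *Spalax* it was 35828 to 40828 in fibrosarcoma IS against 3711 to 4059 in UIS, and 18460 to 19558 in granuloma IS against 4715 to 10442 in UIS. Mki67, a marker of cycling cells, rose by 6.10 on the log2 scale in mouse, by 9.01 in *Spalax* fibrosarcoma and by 5.86 in granuloma (SE 1.13, 0.35 and 0.59; limma adjusted p = 0.00758, 0.000854 and 0.00694). Top2a, which untangles DNA in dividing cells, rose by 7.29, 6.30 and 5.42 in the same order. Pcna, the sliding clamp of replication, rose by 1.39 in mouse and 2.30 in *Spalax* fibrosarcoma, and its 1.01 in granuloma did not pass (limma adjusted p = 0.0847). Of 10 fibroblast markers, 6 rose in mouse, 3 in *Spalax* fibrosarcoma and 8 in granuloma, with summed levels of 165893 to 197493, 124904 to 436499 and 981985 to 2107280 in IS against 5239 to 33375, 27923 to 46569 and 14392 to 20437 in UIS. Of the macrophage and leukocyte markers tested, 5 of 10, 7 of 8 and 5 of 8 rose. Their summed levels, over 10 genes in mouse and 8 in *Spalax*, were 7278 to 52493, 10573 to 21397 and 8065 to 20233 in IS. In UIS they were 803.3 to 7963, 1862 to 2209 and 919.8 to 2877. Lymphocyte markers rose in 2 of 7, 4 of 5 and 0 of 4 tested, with 1 falling in *Spalax* fibrosarcoma. Adipocyte markers fell in 8 of 8, 5 of 8 and 3 of 6 tested, and endothelial markers in 1, 4 and 0 of 6. The part of these cell types in the changes of the repair genes was not tested.

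Among the 8 genes of the core complex, 5 rose in mouse, while 2 rose and 1 fell in *Spalax* fibrosarcoma and 0 changed in granuloma. Fancc, an adaptor subunit, had 606.2 and 369.6 normalised counts in the *Spalax* fibrosarcoma UIS (animals 2240 and 2230) and 88.5 and 55.8 in their IS. It was 6.76-fold lower in the tumor by group means, which is -2.73 on the log2 scale (SE 0.46, limma adjusted p = 0.0154). In granuloma it went from 676.5 and 3829 in UIS (animals 600 and 976) to 225.7 and 171.6 in IS, and its log2 value of -3.03 did not pass (SE 0.84, limma adjusted p = 0.0546), although it passed with the animal as a block (limma adjusted p = 0.0439). Without the UIS library of animal 976 it was -1.78 (limma adjusted p = 0.101). Both IS libraries lay below both UIS libraries in each *Spalax* tumor. In the mouse, Fancc was at 99.2, 137.2 and 38.9 in UIS and at 185.6, 144.7 and 149.5 in IS, so that the IS values lay above those of UIS (0.96, SE 0.53, limma adjusted p = 0.177).

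Fanca, the subunit mutated most often in Fanconi anemia, was at 49.6, 28.9 and 24.5 in mouse UIS (animals 1019, 1023 and 512) and at 323.6, 323.9 and 314.8 in IS. It rose by 3.25 (SE 0.39, limma adjusted p = 0.00242). In *Spalax* its libraries overlapped, with 327.3 and 311.3 in fibrosarcoma UIS against 242.2 and 668.6 in IS. Fancm, the DNA translocase that anchors the complex, rose by 2.29 in mouse (SE 0.33) and by 1.67 in *Spalax* fibrosarcoma (SE 0.33; limma adjusted p = 0.00363 and 0.0221). Fancb, a scaffold of the catalytic part, rose by 1.44 in mouse, and in *Spalax* fibrosarcoma from 107.9 and 102.4 to 288.9 and 268.7 (SE 0.33, limma adjusted p = 0.0347), there not with the animal as a block (limma adjusted p = 0.0732). Fancf (2.08) and Fancg (1.57), further adaptors, rose in mouse, the latter no longer with the animal as a block (limma adjusted p = 0.0556). Fance and the ligase Fancl did not pass in any tumor, with log2 fold changes between -0.63 and 0.68. 

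Of the 5 genes of the monoubiquitination step, only Fancd2 rose in all 3 tumors by limma. Granuloma UIS held 33.8 and 38.9 normalised counts and granuloma IS 908.8 and 834.4. It was at 36.4 and 32.7 in *Spalax* fibrosarcoma UIS and 1347 and 902.5 in IS, and 52.0, 10.3 and 11.5 in mouse UIS and 265.7, 501.8 and 379.5 in IS. In each tumor every IS library was above every UIS library, and 60.2% to 74.3% of all genes also had no overlap between the sides. The group means differed 24.0-fold, 32.6-fold and 15.5-fold, with log2 fold changes of 4.55 (SE 0.47), 4.96 (SE 0.37) and 4.24 (SE 0.68; limma adjusted p = 0.00704, 0.00365 and 0.00488).

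Its partner Fanci showed another pattern. In mouse it was close to absent outside the tumor, with 24.2, 0 and 4.32 in UIS against 191.2, 176.2 and 116.8 in IS, a rise of 4.96 (SE 1.13, limma adjusted p = 0.0142). In *Spalax* it was already at 147.9 and 169.2 in fibrosarcoma UIS and reached 623.3 and 410.8 in IS, a rise of 1.67 (SE 0.35, limma adjusted p = 0.0262). In granuloma it had 108.5 and 216.7 in UIS and 230.1 and 320.8 in IS (0.82, not passing). Usp1, which removes the ubiquitin again, rose by 1.14 in *Spalax* fibrosarcoma (SE 0.23, limma adjusted p = 0.0225), and its 0.98 in mouse did not pass (limma adjusted p = 0.104). Ube2t had values of -1.72 in granuloma (limma adjusted p = 0.101), -0.69 in *Spalax* fibrosarcoma and 0.20 in mouse, none of which passed. Wdr48, the cofactor of Usp1, passed in no tumor.

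All 5 genes of homologous recombination rose in mouse, against 3 in *Spalax* fibrosarcoma and 1 in granuloma. Brca1, a ubiquitin ligase that starts the resection and loading steps, was at 62.9, 6.19 and 7.20 in mouse UIS and at 584.6, 692.8 and 601.6 in IS, and rose by 5.33 (SE 0.86, limma adjusted p = 0.00491). In *Spalax* fibrosarcoma it went from 37.6 and 38.4 to 767.8 and 844.3, a rise of 4.37 (SE 0.33, limma adjusted p = 0.00365). In granuloma it was at 36.2 and 326.2 in UIS and at 423.9 and 534.7 in IS, and its 2.11 did not pass (SE 1.06, limma adjusted p = 0.193), with the UIS library of animal 976 far above that of animal 600. Without that library it was 3.68 (limma adjusted p = 0.0653).

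Brip1, the helicase partner of Brca1, rose in each tumor. Its values were 15.7 and 15.3 in granuloma UIS and 106.7 and 134.7 in IS, 36.4 and 27.0 in *Spalax* fibrosarcoma UIS and 305.5 and 257.3 in IS, and 55.6, 14.4 and 24.5 in mouse UIS and 311.7, 267.5 and 323.7 in IS. The IS libraries were above all UIS libraries throughout. Its rises were 2.87 (SE 0.64), 3.12 (SE 0.42) and 3.42 (SE 0.54; limma adjusted p = 0.0326, 0.00949 and 0.00467), and with the animal as a block it did not pass in granuloma (limma adjusted p = 0.054). Brca2, a mediator of strand exchange, rose by 2.43 in mouse and 0.97 in *Spalax* fibrosarcoma (SE 0.34 and 0.26; limma adjusted p = 0.00336 and 0.0456), the latter no longer with the animal as a block (limma adjusted p = 0.0742). Palb2, the bridge between Brca1 and Brca2, rose by 2.90 in mouse and Rad51c, which acts in the same repair step, by 2.68. Their values in *Spalax* were between 0.08 and 0.51 and did not pass.

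The 8 nuclease genes moved in both directions. Eme1, the regulatory subunit of the Mus81 nuclease, rose in each tumor: from 435.3 and 760.8 to 4691 and 2451 in granuloma, from 475.2 and 655.4 to 3379 and 2676 in *Spalax* fibrosarcoma, and from 24.2, 2.06 and 1.44 to 124.0, 136.4 and 123.2 in mouse. No IS library overlapped a UIS library. The rises were 2.56 (SE 0.49), 2.43 (SE 0.28) and 4.49 (SE 0.92; limma adjusted p = 0.0221, 0.00724 and 0.0102). Mus81, its catalytic partner, went the other way, from 541.9 and 524.6 to 237.9 and 194.3 in *Spalax* fibrosarcoma (-1.31, SE 0.28, limma adjusted p = 0.0284), and its -0.79 in granuloma and -0.69 in mouse did not pass. With the animal as a block its call was lost (limma adjusted p = 0.0529), and scaled by total reads its change was -0.50 (limma adjusted p = 0.208).

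Fan1, a nuclease recruited by ubiquitinated Fancd2, was at 665.7 and 515.9 on the uninjected side of the granuloma animals and at 144.4 and 130.5 in the tumor, a 4.30-fold lower mean (-2.09, SE 0.42, limma adjusted p = 0.0259). Scaled by total reads the value was -1.35 and did not pass (limma adjusted p = 0.0638). In *Spalax* fibrosarcoma it went from 311.6 and 281.5 to 159.8 and 100.7 (-1.22, limma adjusted p = 0.0706), and in mouse its libraries overlapped. Slx4, the scaffold that gathers the nucleases, rose by 1.85 in mouse alone of the 3 tests (SE 0.29, limma adjusted p = 0.00445). Ercc1 and Ercc4, the pair that incises beside the crosslink, and Eme2, the other partner of Mus81, passed in no tumor.

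Fen1, the flap endonuclease, rose by 2.28 in mouse (SE 0.61, limma adjusted p = 0.0241), but from 1.21, 2.06 and 7.20 in UIS to only 20.7, 14.2 and 18.4 in IS. In *Spalax* fibrosarcoma it was at 503.1 and 713.7 in UIS and higher, at 1135 and 1082, in IS. Its 0.89 there did not pass (SE 0.28, limma adjusted p = 0.0664), but scaled by total reads it was 1.69 and passed. In granuloma the Fen1 libraries overlapped, with 651.2 and 1007 in UIS and 680.9 and 552.2 in IS (-0.401, not passing). In GENCODE (GRCm38) Gm10143 lies on the opposite strand over 84.19% of the Fen1 exon bases and over all 1140 bases of its coding sequence. The libraries were made strand-specific, but the strand setting of the counting is not stated, and if strand was not used such reads could not be assigned to either gene. The part of this overlap in the mouse value was not tested. A stretch of the length of 1 read, 101 bases at chr19:10200978-10201078 on the minus strand, is shown because each of its bases is shared with Gm10143. It opens the coding sequence, with the start codon in capitals.
Fen1: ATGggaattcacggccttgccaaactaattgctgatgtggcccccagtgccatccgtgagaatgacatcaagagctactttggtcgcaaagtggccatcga
Gm10143 itself held 1 to 5 reads in mouse control, 0 to 3 in UIS and 17 to 23 in IS.

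Of the 6 helicase and dissolvasome genes, 3 rose in mouse, 2 in *Spalax* fibrosarcoma and 0 in granuloma. Blm, the helicase that dissolves joined DNA molecules, was at 14.5 and 5.69 in *Spalax* fibrosarcoma UIS and at 326.4 and 146.9 in IS, and rose by 4.43 (SE 0.71, limma adjusted p = 0.014). In mouse it went from 64.1, 48.5 and 168.4 to 378.9, 472.7 and 522.7, a rise of 2.48 (SE 0.51, limma adjusted p = 0.0103). In granuloma its 1.92 did not pass (limma adjusted p = 0.0753). Rmi2, a small subunit of the Blm complex, rose by 1.69 in *Spalax* fibrosarcoma (SE 0.30, limma adjusted p = 0.0175), and its 1.60 in mouse did not pass (SE 0.90). Wrn, a related helicase, rose by 1.50 in mouse and Top3a, the topoisomerase of the complex, by 0.96, the latter no longer with the animal as a block (limma adjusted p = 0.0825). Rmi1 and Top3b passed in no tumor.

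Of the 6 genes of the RPA and ATR step, which senses single-stranded DNA, 1 rose in each fibrosarcoma and 0 in granuloma. Atr, the checkpoint kinase, rose by 1.04 in *Spalax* fibrosarcoma (SE 0.26, limma adjusted p = 0.04), though not with the animal as a block (limma adjusted p = 0.0681). Telo2, which stabilises such kinases, rose by 0.96 in mouse (SE 0.28, limma adjusted p = 0.0298), again not with the block (limma adjusted p = 0.0546). Rpa1, Rpa2 and Rpa3, which coat single-stranded DNA, and Atrip, the partner of Atr, passed in none of the tumors.

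The 6 translesion polymerase genes gave 2 rises in mouse and 1 fall in *Spalax* fibrosarcoma. Polh, which copies past bulky lesions, had 681.3 and 690.9 normalised counts in *Spalax* fibrosarcoma UIS and 247.1 and 266.9 in IS, a fall of 1.41 on the log2 scale (-1.41, SE 0.25, limma adjusted p = 0.0181). In granuloma it had 890.0 and 678.4 in UIS and 320.8 and 180.7 in IS (-1.69, limma adjusted p = 0.0507). In mouse it rose, from 211.6, 184.6 and 187.2 to 350.4, 479.3 and 384.8 (1.04, SE 0.27, limma adjusted p = 0.0208). Scaled by total reads the *Spalax* fibrosarcoma value was -0.61 and did not pass (limma adjusted p = 0.119). Poli, a related polymerase, rose by 1.78 in mouse. Rev1 and Rev3l, which extend from the lesion, Polk and Poln passed in no tumor. In granuloma UIS Rev3l was at 1655 in animal 600 and 6339 in animal 976. Pms2, of mismatch repair, rose by 1.08 in mouse (SE 0.28, limma adjusted p = 0.0206), with 135.4, 121.7 and 139.6 in UIS and 266.2, 304.3 and 273.7 in IS. In *Spalax* it had 763.8 and 710.8 in fibrosarcoma UIS and 475.2 and 549.3 in IS, which did not pass.

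Whether the change differed between tumors was tested by an interaction term. Between *Spalax* and mouse fibrosarcoma, 3 of the 45 genes differed, all lower in *Spalax*, beside 1.94% of 11085 shared genes that did so. They are Fancc (-3.70, SE 0.78, limma adjusted p = 0.0397), Polh (-2.46, SE 0.37, limma adjusted p = 0.0171) and Pms2 (-1.61, SE 0.36, limma adjusted p = 0.0473). With the animal as a block none of the 3 passed (limma adjusted p = 0.0826, 0.0777 and 0.136). Without the block, 13 of the 45 had an unadjusted p under 0.05 by limma, beside 2390 of the 11085 shared genes. Fanca (-2.92), Palb2 (-2.39) and Telo2 (-1.41) came next, with limma adjusted p of 0.0524, 0.0608 and 0.0608. DESeq2 called 11 of the 45, all lower in *Spalax*, beside 1711 of the 11085 genes, of which 801 were lower. Leaving out single mouse libraries gave 0 to 5 of the 45 by limma. Between fibrosarcoma and granuloma in *Spalax*, 0 of the 45 differed by limma, beside 0% of 15584 genes. By limma 2 had an unadjusted p under 0.05 (Blm and Fen1), beside 766 of the 15584. DESeq2 and edgeR called 0 of the 45, beside 88 and 0 of all genes.

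**Figure D2:**
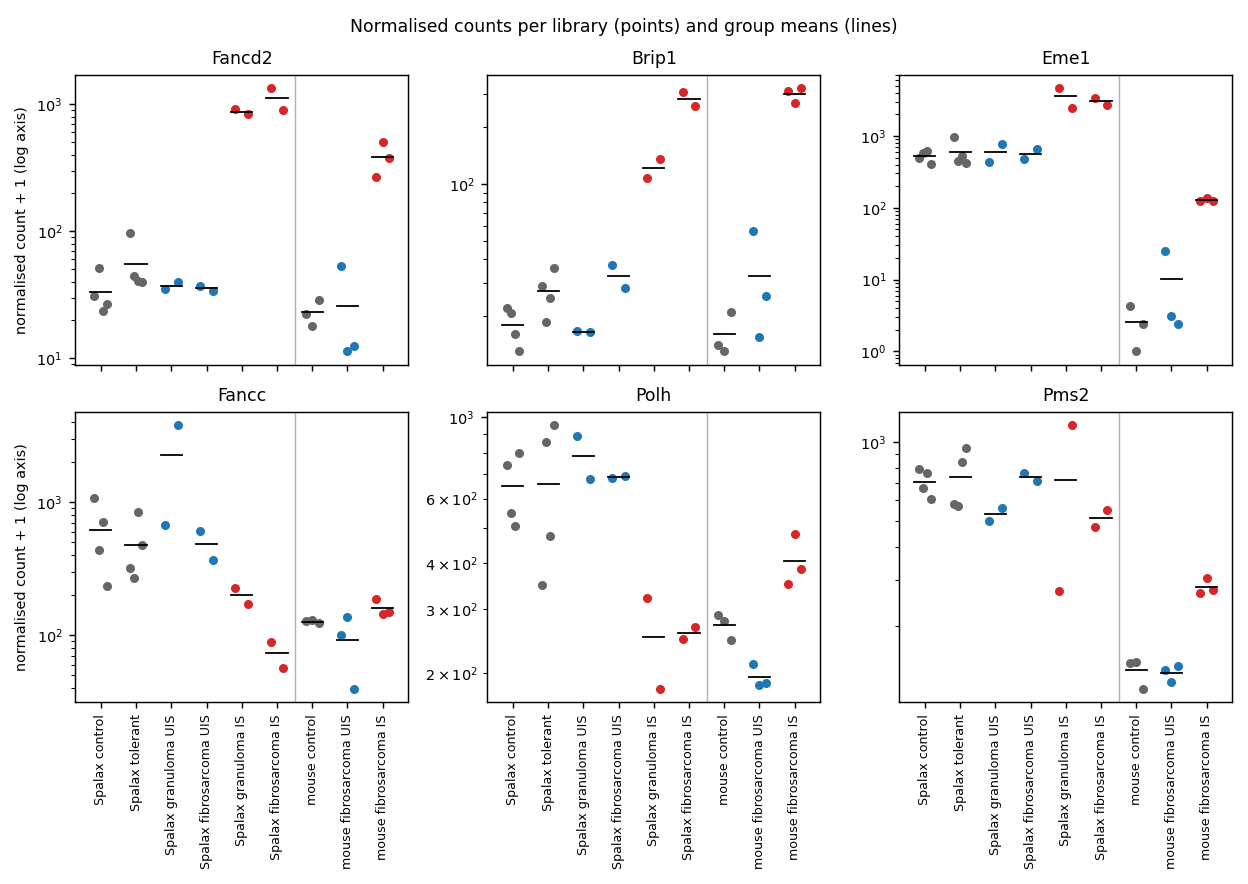
Normalised counts plus 1 (log axis) of 6 genes in every library by group, points for libraries and lines for group means, grey for control and tolerant, blue for UIS and red for IS. Fancd2, Brip1 and Eme1 have their IS points above all UIS points in each tumor, whereas Fancc and Polh have them below in *Spalax* and above in mouse.

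In muscle away from a tumor no difference between groups passed the test. Between *Spalax* tumor-bearing UIS and control, 0 of 44 genes tested differed by limma, DESeq2 or edgeR, beside 0% of 13909 genes by limma and 516 genes by DESeq2. An unadjusted p under 0.05 by limma was found for 5 of the 44, beside 2315 of the 13909. The 5 were Atr (0.78), Eme2 (1.08), Fancf (-0.90), Poli (0.55) and Slx4 (0.90). In 3 of the 44 the groups did not overlap, beside 12.7% of all genes. Between tolerant and control, 0 of 44 differed by the 3 tools, beside 0% of 14020 genes by limma and 60 genes by DESeq2. By limma 2 of the 44 had an unadjusted p under 0.05, beside 733 of the 14020. In 2 of the 44 the groups did not overlap, beside 3.86%. Fancb was at 71.8, 194.2, 76.1 and 109.4 in control and at 240.2, 197.1, 156.0 and 202.4 in tolerant (0.91, unadjusted p = 0.0235, limma adjusted p = 0.899). The 240.2 is library 2251, whose fibroblast markers summed to 224137 against 8462 to 48638 in the other tolerant libraries. Its macrophage and leukocyte markers summed to 16991 against 719.7 to 3456, and its muscle markers to 1.28e+06 against 2.94e+06 to 4.14e+06. The part of this in the Fancb values was not tested. Fancb was at 113.4, 48.3, 107.9 and 102.4 in UIS, below all tolerant libraries (-1.15, limma adjusted p = 0.880). Eme2 had 38.6, 19.8, 12.5 and 11.9 in control and 40.5, 58.0, 27.8 and 48.2 in tolerant.

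Between tumor-bearing UIS and tolerant, 0 of 45 differed by limma, DESeq2 or edgeR, beside 0.00713% of 14029 genes by limma and 38 genes by DESeq2, and 4 did not overlap, beside 4.11%. Only Fancb of the 45 had an unadjusted p under 0.05 there by limma, beside 718 of the 14029 genes. In the mouse, 0 of 40 genes tested differed between UIS and control by limma, DESeq2 or edgeR, beside 0% of 14792 genes by limma and 342 genes by DESeq2, and 5 did not overlap, beside 21.2%. Poln, a polymerase with a role at crosslinks, had the single unadjusted p under 0.05 by limma among the 40, beside 1621 of the 14792 genes. It was at 275.4, 260.2 and 256.0 in control, at 68.9, 116.5 and 15.8 in UIS and at 13.4, 23.1 and 11.0 in IS. The control libraries lay above all others, and UIS differed from control by -2.36 (SE 0.67, limma adjusted p = 0.415). Adipocyte markers summed to 131068 to 221939 in mouse control, 11124 to 104395 in UIS and 346.9 to 984.6 in IS. Their part in the Poln values was not tested.

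**Figure D3:**
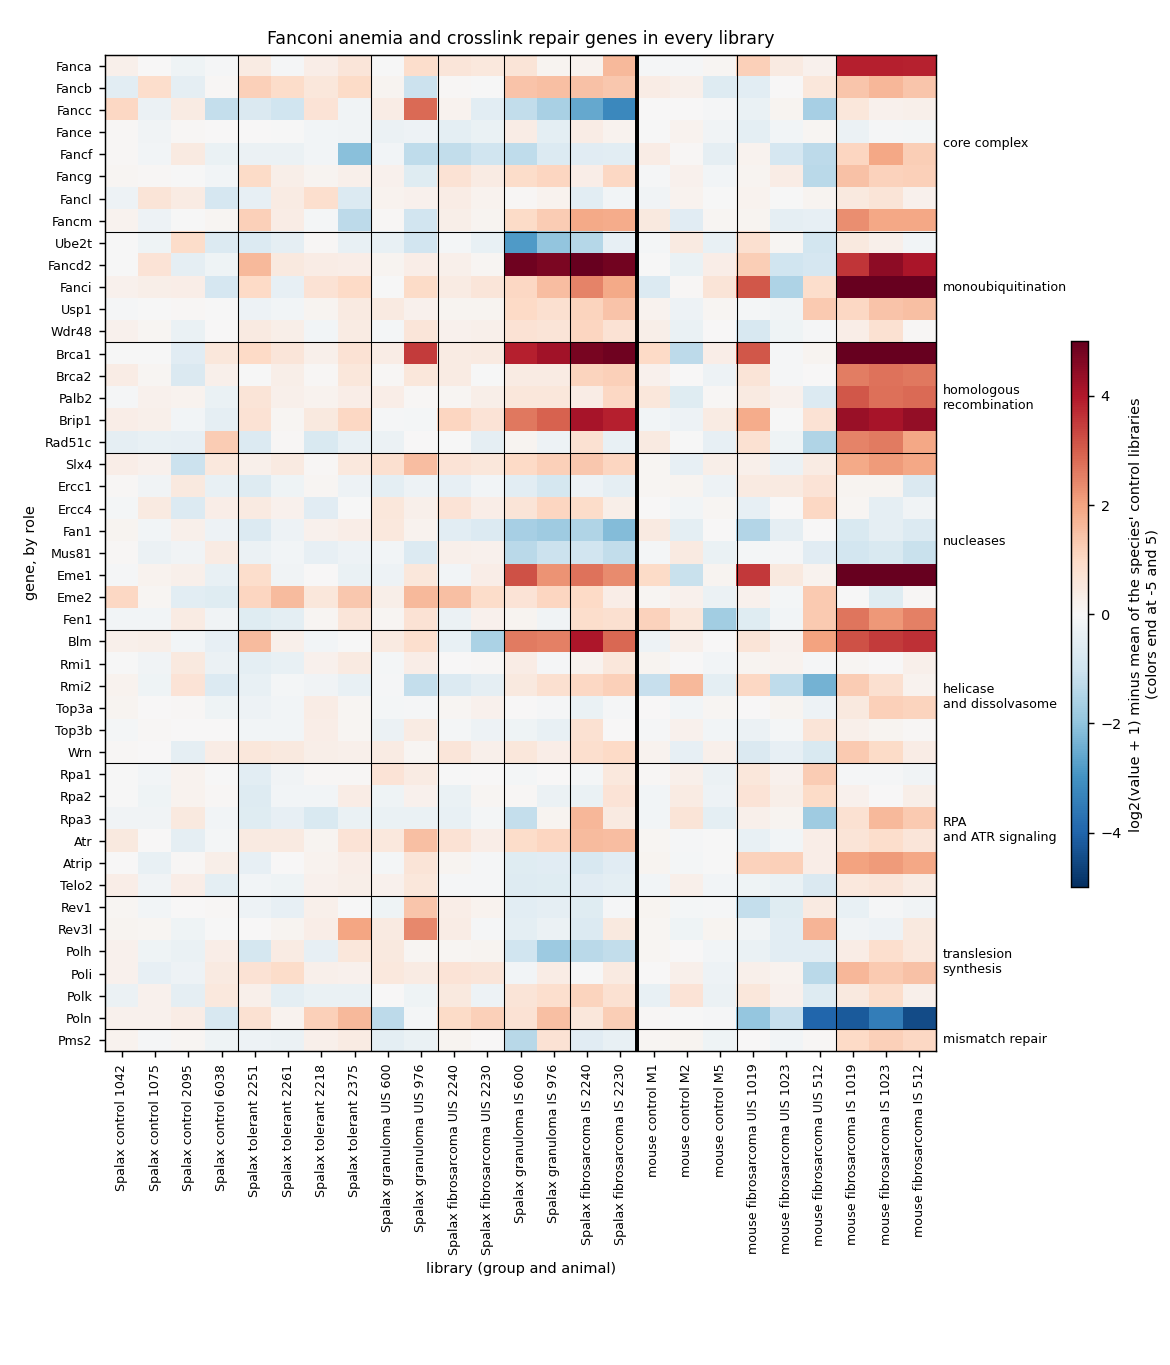
Log2(value + 1) of each gene (rows, by role) in each of the 25 libraries (columns), less the mean of the control libraries of the same species; colors end at -5 and 5. The IS columns are red for Fancd2, Brca1, Brip1, Eme1 and Blm in both species, and Fancc, Fan1, Mus81 and Polh are blue in *Spalax* IS.

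Levels in untreated muscle were then set side by side. They are given as CPM (reads scaled to a common total with TMM on the genes both tables share). Gene models differ between the tables, so the ratios are described and not tested. The *Spalax* controls were all wild-caught females and the mouse controls all males a few months old. Species, sex and age cannot be told apart in these ratios. In 34 of the 45 genes the *Spalax* mean was the higher, 75.6%, against 49.4% of 11704 shared genes with a mean of at least 1 CPM in a control group. The paper lists Fanconi anemia genes as higher in *Spalax* than in mouse controls, from these same animals. Eme1, Fen1, Atrip, Fanci and most others of that list are among the 45, so this share is not independent of it. The median log2 ratio of *Spalax* to mouse was 1.04 for the 45 genes and -0.02 for all. All *Spalax* libraries were above all mouse libraries in 28 genes, beside 29.6% of the shared genes, and below in 5, beside 31.2%. In 19 genes without any exon overlap in the mouse annotation, 15 had the higher mean in *Spalax* and the median log2 ratio was 0.99. Deposited values used as they are gave 75.6% again, and scaling by total reads 73.3%. In normalised counts, each table scaled on its own, proliferation genes summed to 3471 to 5383 in *Spalax* control and 2091 to 2321 in mouse control. Adipocyte markers summed to 8509 to 26158 and 131068 to 221939. The part of tissue make-up in the ratios was not tested.

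The largest ratio was that of Eme1, with 25.4, 30.9, 31.4 and 21.0 CPM in *Spalax* control and 0.163, 0 and 0.0702 in mouse. The mouse value rests on 6 reads in all, and the 349.6-fold ratio has a counting interval of 160.6 to 952.7 (exact Poisson, 95%, counting error only). Of the mouse Eme1 exon bases 10.72% lie under the opposite-strand gene Lrrc59. Fen1 followed, with 29.1, 29.6, 42.1 and 28.8 CPM against 0.325, 0.203 and 0, from 12 mouse reads, with the antisense overlap described above for this gene. Atrip was at 13.6, 10.6, 13.9 and 16.4 CPM against 0.244, 0.203 and 0.211, from 16 mouse reads. It shares 16.04% of its exon bases with Trex1 on the same strand, and Trex1 is listed at 0 in every mouse library. Fanci was at 6.50, 7.12, 7.22 and 3.22 CPM against 0.0407, 0.102 and 0.176, from 8 mouse reads, with 15.95% of its exon bases under the opposite-strand gene Polg.

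The next ratios rest on more reads. Palb2 was 22.3-fold higher in *Spalax*, with 26.4, 32.1, 30.6 and 22 CPM against 1.75, 0.762 and 1.23. Rad51c was 11.1-fold higher, with 6.44, 6.98, 6.58 and 22 against 1.26, 0.914 and 0.667, and *Spalax* control 6038 was far above the other 3. Brca2 was 11.0-fold higher, with 36.6, 31.4, 17.2 and 34.4 against 3.13, 2.74 and 2.25. Fanca was 10.6-fold higher, with 13.1, 11.3, 9.53 and 10.7 against 1.02, 1.02 and 1.12. In each of these 8 genes the *Spalax* libraries lay above those of mouse, as in 28 of the 45 and 29.6% of the shared genes. They were picked as the 8 highest ratios, so this separation adds no support.

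The reverse held for a few genes. Poln was 32.1-fold higher in mouse, with 0.452, 0.475, 0.511 and 0.208 CPM in *Spalax* against 13.8, 13.2 and 12.7. Eme2 was 5.36-fold higher in mouse, with 1.98, 1.04, 0.639 and 0.623 against 6.02, 6.60 and 4.60. Of its mouse exon bases 25.95% lie under Mapk8ip3 on the same strand and 28.23% under Spsb3 on the opposite strand. Fancl, the ligase, was 3.38-fold higher in mouse, with 0.848, 1.71, 1.41 and 0.571 against 3.34, 4.42 and 3.76. Of its mouse exon bases 13.7% lie under the opposite-strand gene Vrk2. Polk was 2.49-fold higher, with 4.81, 7.07, 4.35 and 8.61 against 11.3, 23.4 and 11.7. Genes that rose in all 3 tumors had unlike ratios, since Fancd2 and Brip1 stood at 1.52 and 1.17 with overlapping libraries and Eme1 at the top.

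**Figure D4:**
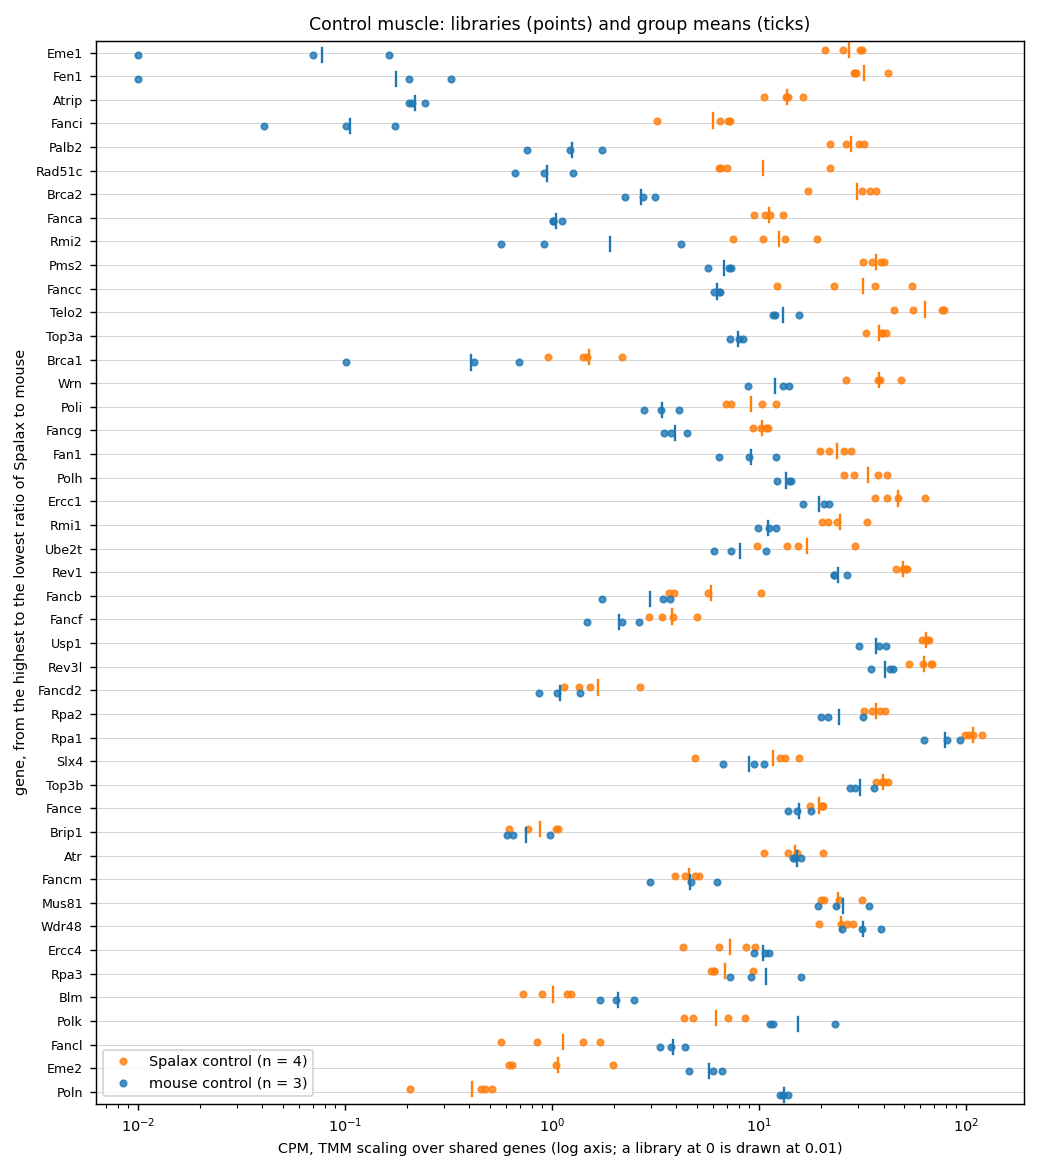
CPM (log axis) of each gene in the 4 *Spalax* control libraries (orange) and the 3 mouse control libraries (blue), with ticks for group means and genes sorted by the ratio of the means; a library at 0 is drawn at 0.01. Eme1, Fen1, Atrip and Fanci have the widest gaps with *Spalax* higher, and Poln the widest with mouse higher.

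Per kilobase of exon, which is the scale that allows genes to be compared with each other, the mouse control mean was highest for Rpa1 (14.2 CPM per kilobase), Usp1 (9.82) and Rpa3 (9.50), and lowest for Fanci (0.0183), Eme1 (0.0281), Atrip (0.0307) and Brca1 (0.0474). Gene lengths were not used for *Spalax*.

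Of 35 other genes of crosslink repair and linked pathways, which are no part of the 45, 33 were tested in mouse and 17 rose with 0 falling. In *Spalax* 28 were tested, of which 14 rose and 1 fell in fibrosarcoma and 8 rose and 0 fell in granuloma, with medians of 1.61, 0.79 and 0.61 in the order mouse, fibrosarcoma, granuloma. Mad2l2, which joins Rev3l in a polymerase, did not pass in any, with values of -0.61, 0.21 and 0.08 in that order (limma adjusted p = 0.156, 0.646 and 0.887).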

How the data were processed

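RNA-seq of 16 *Spalax* and 9 mouse libraries was used. Reads were trimmed, aligned to the respective genome and counted per gene with htseq-count; the processing notes name TopHat 1.4.1, HTSeq, DESeq and GRCm38 for mouse. The deposited tables hold a normalised signal per gene, namely counts that the authors divided by a size factor per library. In every library 100% of the values were whole multiples of the value of 1 read (tolerance 0.1 reads), so reads were recovered. Commas in *Spalax* gene names were read as a lower-case t.

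Groups were compared with limma 3.58.1 under R 4.3.3, with a trended prior, on log2(value + 1). A gene entered if it reached 10 in a number of libraries equal to the smaller group, with p-values Benjamini-Hochberg adjusted over all genes tested, threshold 0.05. Each fit held only the groups compared and no covariate. These fold changes understate low genes. As alternatives, edgeR 4.0.16 and DESeq2 1.42.0 were run on the recovered reads, along with pseudocounts of 0.1 and 5, no filter, scaling by total reads or TMM, a shared model, sex as a covariate and leaving out each library. The fits were tested on simulated data. Genes given with values in every library are those called in all 3 tumors, the 4 largest rises and 4 largest falls called in each tumor, those called in an interaction or between muscle groups, and the 8 highest and 4 lowest control ratios; others shown are further examples. The genes, lists and tests were chosen with earlier results of these data known.

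IS and UIS libraries pair by animal number in the labels. Deviations from the group means correlated between the sides of the same animal at 0.009 in granuloma, -0.002 in *Spalax* fibrosarcoma, and 0.125, 0.047 and 0.178 in mouse. A value of 10 rests on 6.95 to 19.3 reads, which limits the precision of low genes. Reads carry no molecular identifiers, so intervals cover counting error only. Libraries of a group came from separate animals. Exon overlap was taken from GENCODE vM21 (GRCm38), and the plots were made in Python 3.11.15 using matplotlib 3.10.9. Some genes are not reported here.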

Additional observations from a re-analysis of the deposited data

Results flagged for a closer look

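The change in fibrosarcoma differed between *Spalax* and mouse by an interaction term for Fancc (-3.70), Polh (-2.46) and Pms2 (-1.61), and with the animal as a block none of them passed. In groups of 4 *Spalax* libraries, 1 library stood far from the other 3 in 12 of 135 gene and group pairs, by a gap of more than 0.829 of the range on the log2(value + 1) scale. Chance flags about 1 in 20 such groups.

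In control, library 6038 was the highest for Rad51c (421.8 against 125.9 to 132.1) and the lowest for Fanci (61.7 against 127.0 to 141.0) and Poln (3.98 against 8.83 to 9.98). Library 2095 was the highest for Fen1 (820.8 against 552.1 to 567.6) and Rpa3 (182.1 against 114.8 to 116.4), and library 1075 the lowest for Fance (332.6 against 387.0 to 397.5).

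In the tolerant group, library 2375 was the lowest for Fancf (16.1 against 58.0 to 64.8) and the highest for Rev3l (4767 against 1230 to 1523), and library 2251 was the highest for Fancd2 (96.1 against 38.9 to 43.8).

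Among tumor-bearing UIS, library 976 was the highest for Brca1 (326.2 against 36.2 to 38.4) and the lowest for Fancb (48.3 against 102.4 to 113.4), and library 600 the highest for Polh (890.0 against 678.4 to 690.9).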

How the results depend on the processing

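The number of genes called kept within 1.5 times of the reported count except as follows. In granuloma (4 called) DESeq2 called 10, scaling by total reads 8 and a model over all libraries 17. In *Spalax* fibrosarcoma (15) scaling by total reads called 23, and in mouse (22) it called 34. Between the *Spalax* and mouse responses (3) DESeq2 called 11, scaling by total reads 1 and the replicate block of the animals 0. Leaving out single libraries gave 0 in granuloma, 0 to 18 in *Spalax* fibrosarcoma, 10 to 26 in mouse and 0 to 5 for the difference between species. The 0 in granuloma held without either library of animal 600 or 976, and that in fibrosarcoma without UIS 2240 or 2230; the lone library left is then assumed to vary like the other group. Mouse gave 14 without IS 1019, 12 without UIS 1023 and 10 without IS 1023. The species difference gave 0 without mouse UIS 1023, 1 without any single mouse IS library, and 5 without mouse UIS 512. The replicate block called 4 in granuloma, 11 in *Spalax* fibrosarcoma and 19 in mouse. The muscle comparisons and the fibrosarcoma against granuloma difference stayed at 0 under the alternatives run. The cause of these shifts was not tested beyond fewer libraries. For single genes, 6257 values under an alternative were classed as the same. A called gene was so classed if it kept its call and sign, and an uncalled gene if it stayed uncalled within 1 SE. A control ratio, which had no test, had to stay within the spread of its libraries. Of the rest, 165 moved, 135 lost and 86 gained a call, and 0 reversed. The counts include fits that leave 1 library in a group. Few reads limit the low mouse genes.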
